A study of Homo sapiens with 11 samples.

Results

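The leukocyte integrins described here are 10 genes, the alpha chains ITGAM, ITGAX, ITGAL, ITGA4, ITGA5, ITGA6 and ITGAV and the beta chains ITGB2, ITGB1 and ITGB7. They were taken by symbol from a table of fragment counts that holds 38557 genes, and all 10 were present and passed the filter on low counts that left 14683 genes for testing. The counts come from polyA RNA of MOLM-13, a human acute myeloid leukemia line with a rearranged KMT2A gene, kept in culture for 72 h with the diluent DMSO (4 libraries), with 1 µM MI-503 (4 libraries), or with 1 µM MI-503 and 100 nM PR-957 (3 libraries, replicates 1, 2 and 4). MI-503 blocks the binding of Menin to KMT2A, and PR-957, also called ONX-0914, inhibits the immunoproteasome subunit PSMB8. The design compares Menin inhibition with diluent and asks what the second inhibitor changes on top of it. All groups are this 1 line, and a group with PR-957 alone was not analysed here, so a change from MI-503 to the combination cannot be set beside the change that PR-957 gives without MI-503. No source used here says that the replicates were separate cultures, so the p-values measure the spread between these libraries, which may be technical.

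Integrins are receptors made of 1 alpha and 1 beta chain, and both chains are needed for the pair to reach the cell surface. ITGB2 pairs with ITGAL (the receptor LFA-1, CD11a/CD18), ITGAM (Mac-1 or complement receptor type 3, CD11b/CD18), ITGAX (complement receptor type 4, CD11c/CD18) and ITGAD, and these pairs serve adhesion, phagocytosis and complement uptake by white blood cells; ITGAM and ITGAX are commonly used as markers of maturing myeloid cells. ITGA4 pairs with ITGB1 to bind VCAM1 and fibronectin and with ITGB7 to bind MADCAM1, ITGA5 and ITGA6 pair with ITGB1 as fibronectin and laminin receptors, and ITGAV binds matrix proteins with several beta chains.

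The libraries held 18891243 to 41153974 counted fragments. Replicate 1 of the combination stood apart from the rest of its group, with 37 of 10041 genes of at least 5 CPM (fragments per 1000000 of the library total after TMM scaling) more than 2-fold away from the mean of the other 2 libraries, against 13 for replicate 4, 4 for replicate 2 and at most 1 in any library of the other groups. The myeloid markers fixed for this work summed to 865 to 944 CPM with DMSO, 1270 to 1323 with MI-503 and 1391 to 3559 with the combination, most of that rise in LYZ, while ANPEP and CD14 were at most 1.25 and 0.484 CPM in any library. T cell markers summed to at most 0.276 CPM with CD2 at 0, erythroid markers to at most 0.451 CPM and megakaryocyte markers to 3.45 to 5.32 CPM with PPBP at 0. B cell markers summed to 48.97 to 51.6 CPM with DMSO, 33.6 to 34.4 with MI-503 and 24.1 to 27.8 with the combination, nearly all of it PAX5 and with no overlap, while MS4A1 was at 0. PAX5 was called lower with MI-503 against DMSO (-0.61, edgeR adjusted p = 7.18e-09), with the combination against DMSO (-0.97, edgeR adjusted p = 1.52e-11) and between the treated groups (-0.36, edgeR adjusted p = 2.25e-05), and its part in the results was not tested. Fibroblast and epithelial markers summed to 25.1 to 45.6 CPM, nearly all of it KRT18 and KRT8. The means of KRT18 were 32.9, 25.6 and 22.5 CPM in DMSO, MI-503 and the combination, and those of KRT8 7.21, 10.1 and 7.43. COL1A1 was at most 0.992 CPM in any library, and COL1A2, COL3A1 and EPCAM at most 0.0949. Of 8 myeloid markers tested, edgeR called 6 higher and 1 lower with MI-503 against DMSO (median log2 fold change 0.45), 5 and 1 with the combination against DMSO (median 0.30), and 4 and 3 between the treated groups (median 0.04). In the same contrasts, 51.3%, 64.4% and 47.2% of all tested genes were called in either direction. The 3 myeloid markers that fell between the treated groups were MPO (-0.74), FCGR1A (-0.53) and FLT3 (-0.25), and FLT3 fell in every contrast. LYZ was lowest in replicate 1 within the combination, at 599 CPM with 1812 and 2513 in replicates 2 and 4, and that library was the highest of the group for ITGAM and ITGB7 and the lowest for ITGAX. The part of these markers in the members' results was not tested, and in bulk RNA a change in the number of cells of a type and a change in RNA per cell cannot be told apart.

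Divided by the kilobases of exon over which fragments were counted, which allows genes to be compared, ITGB2 was the most abundant of the 10 with DMSO. It reached 112 CPM per kilobase ± 2.95 (SD, n = 4), followed by ITGAL at 60.6 ± 6.05, ITGA5 at 34.6 ± 1.59, ITGB1 at 28.8 ± 1.32, ITGA4 at 13.1 ± 0.797, ITGAM at 4.75 ± 0.307 and ITGAV at 2.09 ± 0.198. None of these 7 levels overlapped with its neighbour in that order across the 4 libraries. ITGB7 at 1.08 ± 0.324, ITGAX at 0.967 ± 0.317 and ITGA6 at 0.963 ± 0.192 CPM per kilobase overlapped and could not be ordered by this length. With MI-503 the first 6 ranks were filled by the genes in the same order. ITGAX and ITGB7 stood above ITGAV and overlapped by this length, and ITGA6 was lowest at 1.58 ± 0.228. With the combination ITGAM (14.2 ± 1.49, n = 3) was above ITGA4 (10.7 ± 0.862), and ITGA4 overlapped with ITGAX (9.37 ± 1.66) by this length.

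The way fragments were counted set limits on some of these levels, because strand was ignored and fragments that overlapped exons of more than 1 gene were not counted. ITGB7 shares 51.8% of its 3030 counted exon bases with ZNF740 and ITGA4 shares 20.5% of 7674 with CERKL, so their levels per kilobase are understated. Over unshared exon bases alone ITGB7 came to 2.25, 6.92 and 14.96 CPM per kilobase in DMSO, MI-503 and the combination, above the mean of ITGAV in each group and overlapping with it in DMSO. By unshared bases ITGB7 lay clear of ITGAX and ITGA6 in DMSO (1.72 to 3.21, with the others at most 1.4 and 1.24). With MI-503 it lay clear of ITGAX (6.25 to 7.8, with ITGAX at 3.35 to 3.99). The order with the combination depended on this choice too. Over unshared exon bases ITGB7 had a higher mean than ITGAM (14.2) and ITGA4 (13.4). ITGAM (12.55 to 15.4) overlapped with both, and ITGA4 (12.7 to 14.65) no longer overlapped with ITGAX (7.63 to 10.9). ITGB2 shares 5.09% of its bases with ITGB2-AS1, ITGB1 3.52% with SNORA86 and ITGA5 1.11% with LOC102724050, and the other 5 genes share none. ZNF740 itself was at 62.2, 63.6 and 66.2 CPM in the 3 groups, with no contrast past the threshold (edgeR adjusted p of 0.097 or more), and CERKL was at 0.0569 to 0.11 CPM and was not tested.

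The genes of the ITGB2 alpha chains lie on the plus strand of chromosome 16 in hg38. ITGAL spans chr16:30472683-30523185, ITGAM chr16:31259975-31332877 and ITGAX chr16:31355167-31382999, so that 22289 bases separate ITGAM from ITGAX and 736789 separate ITGAL from ITGAM. ITGAD, another partner of ITGB2, starts 10223 bases after ITGAX. ITGB2 lies at chr21:44885949-44928815 and ITGB1 at chr10:32900318-32958230, both on the minus strand. ITGA4 (181456892 to 181538940), ITGA6 (172427336 to 172506459) and ITGAV (186590056 to 186680902) are on the plus strand of chromosome 2. ITGB7 (53191318 to 53207375) and ITGA5 (54395261 to 54419266) are on the minus strand of chromosome 12.

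Promoter windows of 250 bases that end where the counted exons begin were held by the RefSeq table (GRCh38.p14) for ITGAM, ITGB1, ITGA5, ITGA6 and ITGAV. The first 3 are shown because they belong to a gene that rose steeply, a gene that did not pass in any contrast and a gene that rose by the same amount in both treated groups. Capitals mark matches on either strand to GAGGAA (the core bound by PU.1 and related ETS factors), TGTGGT (a RUNX core) and GGGCGG (the SP1 GC box).
ITGAM: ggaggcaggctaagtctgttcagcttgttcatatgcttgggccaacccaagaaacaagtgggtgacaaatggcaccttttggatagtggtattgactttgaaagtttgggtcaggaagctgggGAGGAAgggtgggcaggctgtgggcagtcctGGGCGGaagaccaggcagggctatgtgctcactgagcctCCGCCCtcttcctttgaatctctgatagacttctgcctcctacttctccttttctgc
ITGB1: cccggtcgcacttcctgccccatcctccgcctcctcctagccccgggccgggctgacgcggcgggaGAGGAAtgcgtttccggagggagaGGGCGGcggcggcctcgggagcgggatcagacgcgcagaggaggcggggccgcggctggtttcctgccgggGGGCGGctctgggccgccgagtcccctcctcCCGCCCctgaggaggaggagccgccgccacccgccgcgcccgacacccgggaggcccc
ITGA5: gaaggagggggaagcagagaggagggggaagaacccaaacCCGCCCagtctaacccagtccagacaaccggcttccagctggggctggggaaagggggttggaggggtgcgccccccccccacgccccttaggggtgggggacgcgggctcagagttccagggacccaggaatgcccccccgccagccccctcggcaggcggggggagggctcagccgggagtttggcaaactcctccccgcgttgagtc
The ITGAM window, chr16:31259725-31259974 on the plus strand, held 1 GAGGAA that began 127 bases before the gene start and 2 GC boxes. The ITGB1 window, chr10:32958231-32958480 on the minus strand, held 1 GAGGAA and 3 GC boxes, and the ITGA5 window, chr12:54419267-54419516 on the minus strand, held 1 GC box. GAGGAA was found in 3 of the 5 windows and in 23.6% of 35116 windows of this length, GGGCGG in 3 of 5 and in 42.6%, and TGTGGT in 0 of 5 and in 11%. A match describes the letters only, and the part of these matches in the members' results was not tested.

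Against DMSO, MI-503 raised 8 of the 10 integrins and lowered none, in a comparison where 51.3% of all tested genes were called at an edgeR adjusted p under 0.05, 21.9% higher and 29.4% lower. The median log2 fold change of the 10 was 0.58 beside -0.03 over all genes. With upper-quartile in place of TMM scaling, 54.1% instead of 42.8% of all calls were higher, and all 10 members were called higher, with 7310 of all tested genes called in either direction instead of 7529. Against DMSO, the combination raised 8 and lowered 1, ITGA4, with 64.4% of all genes called, 31.6% higher and 32.8% lower, and a median of 0.58 for the 10 beside 0.01. From MI-503 to the combination 4 rose (ITGAM, ITGAX, ITGB7, ITGAV), 3 fell (ITGAL, ITGB2, ITGA4) and 3 did not pass, with 47.2% of all genes called, 23.5% higher and 23.7% lower, and the median was 0.05 beside 0.00. The libraries of the groups compared did not overlap for 8, 8 and 7 of the 10, against 50.3%, 60.5% and 47.6% of all genes. Each pair of these comparisons shares 1 group of libraries, so their values are given side by side and were not compared as independent results.

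**Figure D1:**
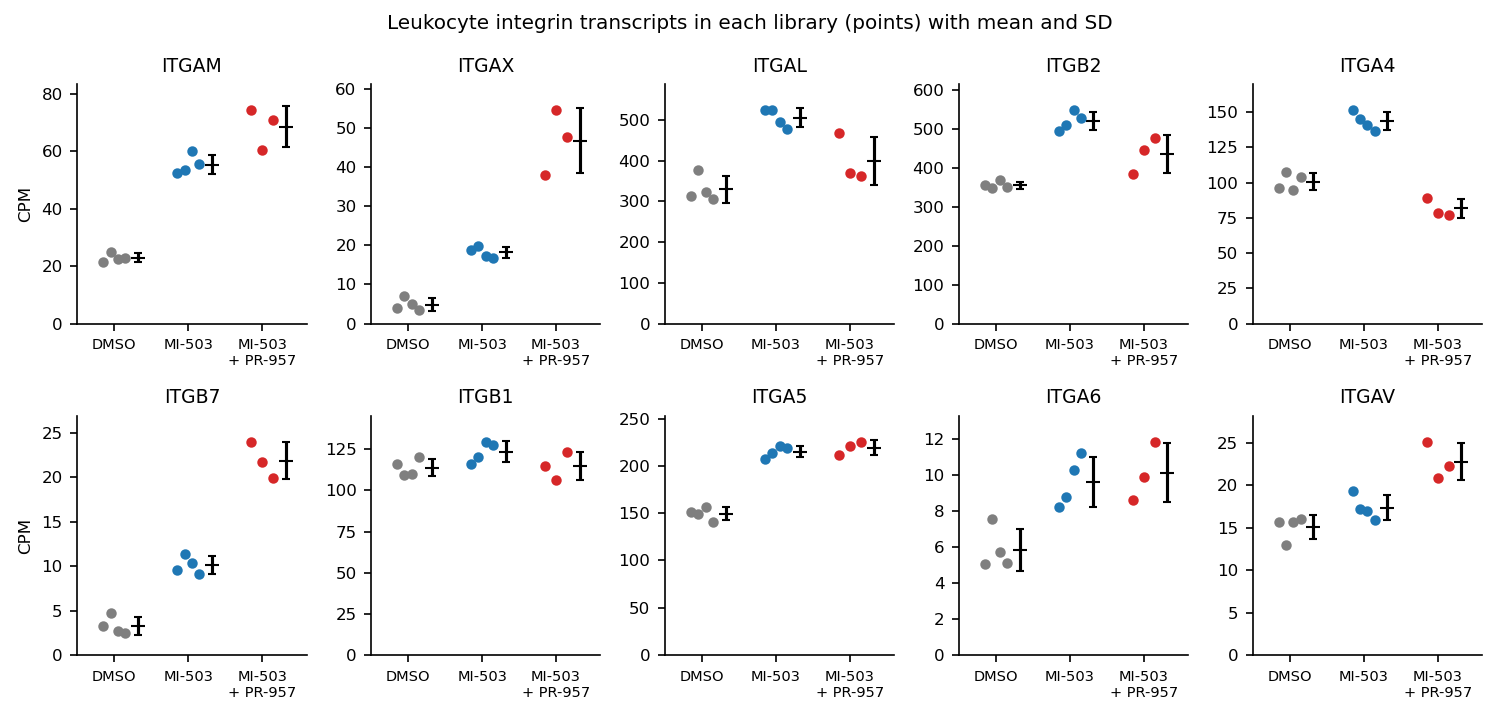
Level in CPM (linear axis from 0, a scale of its own in each panel) of the 10 integrins, with 1 point per library in replicate order and, beside the points, the mean and SD of DMSO (n = 4, grey), MI-503 (n = 4, blue) and MI-503 + PR-957 (n = 3, red). ITGAX and ITGB7 step up from group to group, ITGA4 is highest with MI-503 and lowest with the combination, and the 3 groups of ITGB1 overlap.

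ITGAM, the alpha chain of Mac-1, stood at 21.3, 24.9, 22.6 and 22.8 CPM in the 4 DMSO libraries. With MI-503 it was at 52.3, 53.5, 59.9 and 55.4 CPM, and with the combination at 74.3, 60.5 and 70.8 CPM. All 3 groups were apart, although the lowest combination library was close to the highest MI-503 library. The log2 fold change was 1.27 ± 0.0682 (SE) with MI-503 against DMSO (2.42-fold, edgeR adjusted p = 3.92e-11) and 1.59 ± 0.0713 with the combination against DMSO (3.01-fold, edgeR adjusted p = 1.24e-12). The step from MI-503 to the combination was smaller, 0.32 ± 0.0673 (1.25-fold, edgeR adjusted p = 0.000782).

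ITGAX, the alpha chain of complement receptor type 4, changed most of the 10. It was at 3.85, 6.98, 4.98 and 3.46 CPM with DMSO, which is 73 to 152 fragments per library. It was at 18.8, 19.9, 17.4 and 16.7 CPM with MI-503 and at 38.0, 54.5 and 47.6 CPM with the combination. No library of one group reached the range of another. This was a log2 fold change of 1.93 ± 0.191 with MI-503 (3.82-fold, edgeR adjusted p = 7.01e-06), 3.28 ± 0.188 with the combination against DMSO (9.71-fold, edgeR adjusted p = 2.81e-08) and 1.35 ± 0.16 from MI-503 to the combination (2.54-fold, edgeR adjusted p = 3.92e-05).

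ITGAL, the alpha chain of LFA-1, moved in the other direction between the treated groups. It was at 312, 378, 323 and 306 CPM with DMSO, 524, 524, 495 and 477 CPM with MI-503, and 466, 369 and 362 CPM with the combination. The MI-503 libraries were above all others, while the combination overlapped with DMSO because DMSO replicate 2 was higher than 2 of its 3 libraries. ITGAL rose by 0.62 ± 0.0833 log2 units with MI-503 (edgeR adjusted p = 3.73e-05) and fell by 0.34 from MI-503 to the combination (SE 0.0899, edgeR adjusted p = 0.00739). Its rise with the combination against DMSO was 0.28 ± 0.0894 (edgeR adjusted p = 0.0153). Without combination replicate 1 that rise was smaller, at 0.17, and only just passed (edgeR adjusted p = 0.0411). The rise missed the threshold when only those 2 groups were fitted with the replicate number as a block (edgeR adjusted p = 0.0546). It was the 1 member call in the 3 contrasts that an edgeR adjusted p threshold of 0.01 would end.

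ITGB2, the shared beta chain CD18, followed the pattern of ITGAL rather than of the other alpha chains in its group means. Within the combination the order of libraries was opposite, with replicate 1 the highest for ITGAL and the lowest for ITGB2. It was at 355, 348, 369 and 350 CPM with DMSO, 495, 511, 549 and 529 CPM with MI-503, and 383, 446 and 478 CPM with the combination, without overlap between any groups. ITGB2 rose by 0.55 ± 0.0554 log2 units with MI-503 (1.47-fold, edgeR adjusted p = 1.86e-07) and 0.29 ± 0.0594 with the combination against DMSO (1.23-fold, edgeR adjusted p = 0.000279). From MI-503 to the combination ITGB2 fell by 0.26 (SE 0.0597, edgeR adjusted p = 0.00164). ITGB2-AS1, a transcript on the other strand whose reads cannot be told apart from those of ITGB2 where their exons meet, was at 1.18, 2.24 and 2.3 CPM in the 3 groups and rose by 0.94 and 0.92 log2 units against DMSO (edgeR adjusted p = 0.00109 and 0.0014).

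**Figure D2:**
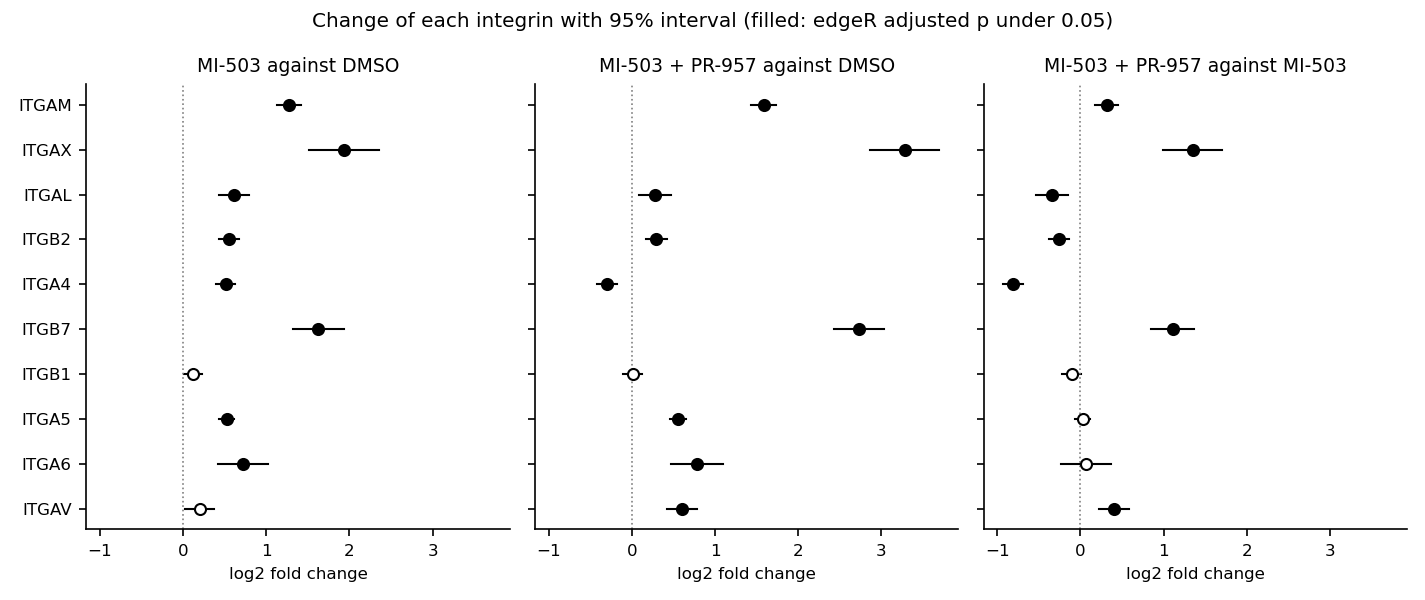
Log2 fold change (x axis, same scale in the 3 panels) of each integrin with its 95% interval from the edgeR fit in each contrast, filled where the adjusted p was under 0.05. ITGAX and ITGB7 lie farthest to the right in all 3 panels, and ITGA4 changes side between the first panel (0.51) and the other 2 (-0.30 and -0.81).

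Since these alpha chains share ITGB2, their make-up was described as each one's share of the summed level per kilobase of ITGAL, ITGAM and ITGAX, as values without a test. ITGAL made up 91.4% ± 0.215 of the sum with DMSO, 86.0% ± 0.793 with MI-503 and 75.5% ± 2.94 with the combination. The share of ITGAM was 7.18% ± 0.359, 10.6% ± 0.909 and 14.7% ± 1.29, and that of ITGAX 1.43% ± 0.322, 3.38% ± 0.152 and 9.83% ± 2.56. The ranges of the 3 groups did not overlap for any of the 3 chains, and the ITGAX share of single combination libraries was 7.01%, 12.0% and 10.5%. The sum of the 3 alpha chains was 66.4 ± 6.64, 108 ± 4.11 and 97.0 ± 10.2 CPM per kilobase, so the share of ITGAL was lower with the combination while the sum stayed above that of DMSO. ITGB2 stood at 1.70 ± 0.171, 1.52 ± 0.113 and 1.43 ± 0.288 times that sum, and these ratios overlapped between all groups. The overlap of DMSO with the treated groups rested on DMSO replicate 2, at 1.44 with the other DMSO libraries at 1.78. The highest ratio was 1.62 with MI-503 and 1.65 with the combination.

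**Figure D3:**
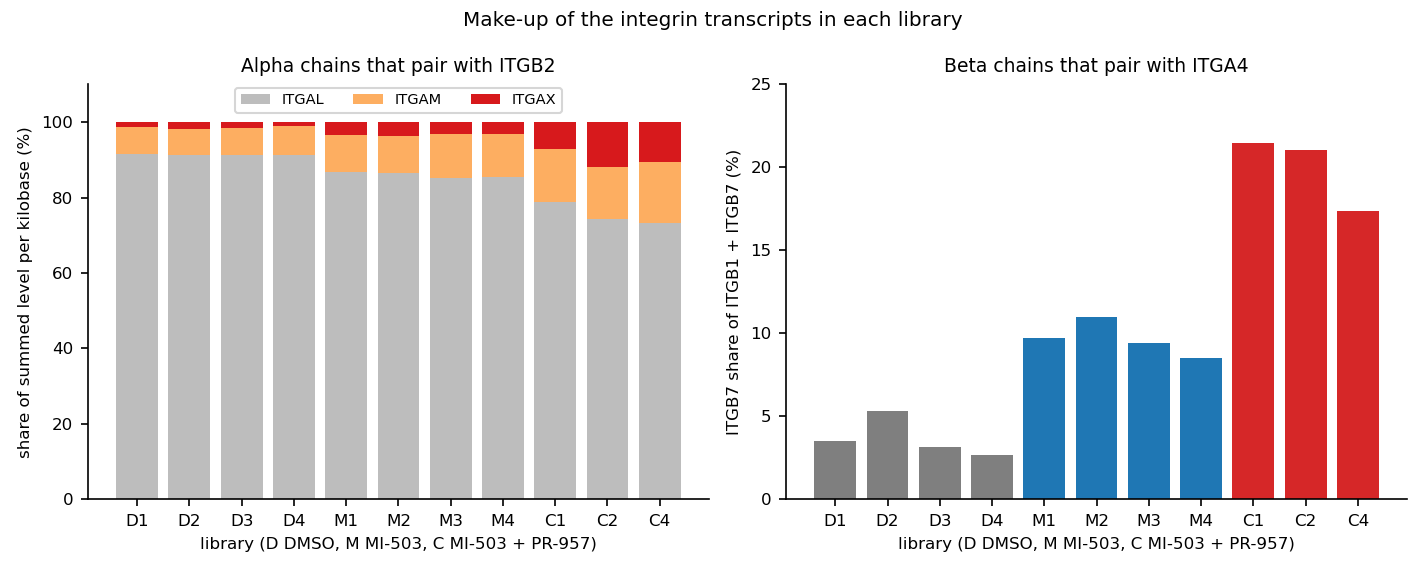
Left, the share (%) of ITGAL, ITGAM and ITGAX in the sum of their levels per kilobase in each of the 11 libraries; right, the share (%) of ITGB7 in the sum of ITGB1 and ITGB7 per kilobase, coloured by group. The ITGAX share goes from a mean of 1.43% in DMSO to 9.83% with the combination, and the ITGB7 share from 3.65% to 20.0%.

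ITGA4, the alpha chain shared by the ITGB1 and ITGB7 pairs, was the only member called in opposite directions against DMSO. It was at 96.3, 108, 95.05 and 104 CPM with DMSO and at 152, 146, 141 and 136 CPM with MI-503. With the combination it was at 89.4, 78.7 and 77.3 CPM, below every DMSO library. It rose by 0.51 ± 0.0536 log2 units with MI-503 (1.43-fold, edgeR adjusted p = 2.47e-07), fell by 0.30 with the combination against DMSO (SE 0.0588, edgeR adjusted p = 0.000204) and fell by 0.81 from MI-503 to the combination (SE 0.0587, edgeR adjusted p = 2.77e-09).

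ITGB7, the beta chain that pairs with ITGA4 in gut-homing cells, rose in both steps. It was at 3.24, 4.69, 2.7 and 2.52 CPM with DMSO (53 to 102 fragments per library), 9.58, 11.4, 10.3 and 9.13 CPM with MI-503, and 24.0, 21.7 and 19.9 CPM with the combination. The groups did not overlap. On the log2 scale ITGB7 rose by 1.62 ± 0.144 with MI-503 (3.08-fold, edgeR adjusted p = 7.45e-08), 2.73 ± 0.142 with the combination against DMSO (6.65-fold, edgeR adjusted p = 2.92e-11) and 1.11 ± 0.123 between the treated groups (2.16-fold, edgeR adjusted p = 1.37e-06).

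ITGB1, the beta chain of most matrix receptors, was not called in any contrast. It was at 116, 109, 110 and 120 CPM with DMSO, 116, 120, 130 and 128 CPM with MI-503, and 115, 106 and 123 CPM with the combination, and all groups overlapped. The log2 fold change was 0.12 (95% interval 0.01 to 0.22, edgeR adjusted p = 0.0641) with MI-503, 0.01 (-0.10 to 0.13, edgeR adjusted p = 0.867) with the combination against DMSO and -0.11 (-0.22 to 0.01, edgeR adjusted p = 0.125) between the treated groups. The first of these passed in 13 of 20 alternative analyses, at 0.09 to 0.18 over all of them.

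Per kilobase of counted exon, ITGB7 therefore went from 3.65% ± 1.15 of the sum of ITGB1 and ITGB7 with DMSO to 9.67% ± 1.03 with MI-503 and 20.0% ± 2.23 with the combination. ITGA4 was at 12.8 ± 3.07, 5.64 ± 0.533 and 1.48 ± 0.051 times the level of ITGB7. In both quantities the 3 groups lay apart, and no test was made. Over unshared exon bases the share of ITGB7 came to 7.02%, 17.6% and 33.2%, and ITGA4 to 7.73, 3.42 and 0.897 times the level of ITGB7, so these values depend on the length used. The order of the groups could not change, because another length scales a gene by the same factor in every library. The replicate spread of the ratio was widest with DMSO, where it ran from 9.09 to 16.3 and ITGB7 had the fewest fragments.

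ITGA5, the fibronectin receptor alpha chain, rose with MI-503 and stayed there. It was at 152, 149, 157 and 140 CPM with DMSO, 207, 213, 221 and 219 CPM with MI-503, and 211, 221 and 226 CPM with the combination. The treated groups overlapped with each other and lay above DMSO. The log2 fold change was 0.53 ± 0.0421 with MI-503 (1.44-fold, edgeR adjusted p = 8.49e-09) and 0.55 ± 0.045 with the combination (1.47-fold, edgeR adjusted p = 2.92e-09), and the difference between the treated groups was 0.03 (95% interval -0.07 to 0.12, edgeR adjusted p = 0.647).

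ITGA6, the laminin receptor alpha chain, showed the same order at a low level. It was at 5.06, 7.54, 5.69 and 5.08 CPM with DMSO, 8.19, 8.75, 10.2 and 11.2 CPM with MI-503, and 8.62, 9.88 and 11.8 CPM with the combination. ITGA6 rose by 0.72 ± 0.141 log2 units with MI-503 (1.65-fold, edgeR adjusted p = 0.000353) and 0.79 ± 0.149 with the combination (1.73-fold, edgeR adjusted p = 0.000162). Between the treated groups it was 0.07 with a wide interval of -0.23 to 0.36 (edgeR adjusted p = 0.724).

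ITGAV, the alpha chain of vitronectin receptors, was the member whose rise was called with the combination but not with MI-503. It was at 15.7, 12.96, 15.7 and 15.99 CPM with DMSO and 19.4, 17.3, 16.9 and 15.9 CPM with MI-503, and these groups overlapped. With the combination it was at 25.2, 20.9 and 22.3 CPM, above both. The log2 fold change was 0.20 ± 0.0839 with MI-503 (edgeR adjusted p = 0.0527, passing in 12 of 20 alternative analyses), 0.60 ± 0.0874 with the combination against DMSO (1.52-fold, edgeR adjusted p = 6.41e-06) and 0.40 ± 0.0859 between the treated groups (1.32-fold, edgeR adjusted p = 0.000805).

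The genes whose centred log2 CPM lay closest to a member over the 11 libraries were sought for ITGAM, ITGAX and ITGB2, as a description. For ITGAM they were CD244, HIPK2 and BMF, with root mean square differences of 0.09, 0.10 and 0.13 log2 units. For ITGB2 they were SNX20, HOMER3 and MAPKAPK2, all at 0.06. For ITGAX they were SEMA6B at 0.20, RAB37 at 0.29 and the member ITGB7 at 0.30, so the likeness was looser for ITGAX, which also had fewer fragments than ITGAM or ITGB2.

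Of the 16 other integrin subunits 8 passed the filter, with calls in both directions. ITGA7, a laminin receptor chain better known from muscle, was at 36.4 to 45.5 CPM with DMSO, 60.5 to 73.3 with MI-503 and 82.8 to 92.8 with the combination and rose in every step, by 0.71 ± 0.0721, 1.07 ± 0.0758 and, between the treated groups, 0.36 ± 0.0738 log2 units (edgeR adjusted p = 4.23e-07, 1.9e-09 and 0.000751). ITGAD, the neighbour of ITGAX, was nearly absent with 1 to 3 fragments per DMSO library and 2 to 10 with MI-503, and reached 23, 19 and 29 fragments with the combination, or 0.543, 0.953 and 1.08 CPM. The combination raised ITGAD by 3.58 ± 0.502 log2 units against DMSO (edgeR adjusted p = 4.13e-06) and by 2.16 ± 0.397 against MI-503 (edgeR adjusted p = 0.000187), values that rest on few fragments, and the MI-503 step was not called (1.42 ± 0.654, edgeR adjusted p = 0.0779). ITGAD passed the filter on low counts only through the combination libraries, so that its being tested depended on its being high there. Its p-values are therefore no independent support for the rise.

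ITGB5, a partner of ITGAV, was at 1.1 to 1.71 CPM with DMSO and at 0.327 to 0.552 CPM in all treated libraries, a fall of 1.81 on the log2 scale with MI-503 (SE 0.249, edgeR adjusted p = 7.01e-06) and of 1.55 with the combination (SE 0.258, edgeR adjusted p = 3.24e-05). ITGA2B, the platelet integrin alpha chain, was at most 0.648 CPM in any library and fell by 1.39 with the combination against DMSO (edgeR adjusted p = 0.0114) and by 1.67 against MI-503 (edgeR adjusted p = 0.00353). ITGA1 passed with MI-503 alone (0.62 ± 0.237, edgeR adjusted p = 0.0349) with overlapping libraries. ITGAE, the other partner of ITGB7, lay at 16.3 to 18.8 CPM in all 11 libraries and was not called, nor were ITGB3 and ITGB4. In all, 2 of the 8 were called higher and 1 lower with MI-503, 2 and 2 with the combination against DMSO, and 2 and 1 between the treated groups. Over all tested genes the shares called in these contrasts were 51.3%, 64.4% and 47.2%. The counts for the combination include ITGAD, which passed the filter only through that group.

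The counts of calls in this and the following lists stand beside the shares of all tested genes called in either direction. These were 51.3% with MI-503 against DMSO, 64.4% with the combination against DMSO and 47.2% between the treated groups. Genes that switch integrins on were called in both directions. Of 11 tested activators 5 rose and 1 fell with MI-503 (median 0.09), 5 rose and 4 fell with the combination against DMSO (median -0.03), and 2 rose and 5 fell between the treated groups (median -0.12). FERMT3, the kindlin of blood cells that ITGB2 receptors need for activation, was at 140 ± 3.76, 165 ± 6.24 and 262 ± 14.5 CPM and rose by 0.24, 0.90 and 0.67 log2 units in the 3 contrasts (edgeR adjusted p = 0.000137, 5.06e-12 and 1.24e-09). The kindlin of epithelia, FERMT1, was at 9.2 ± 0.448, 7.98 ± 0.307 and 3.39 ± 0.432 CPM and fell by 1.44 with the combination against DMSO (edgeR adjusted p = 8.94e-10). FYB1, an adaptor that links immune receptors to integrins, rose by 1.59 with MI-503 and 1.69 with the combination (edgeR adjusted p = 1.52e-12 and 2.98e-13), and its partner SKAP2 rose by 0.21 with MI-503 (edgeR adjusted p = 0.00203). TLN2 fell by 0.69 with the combination against DMSO (edgeR adjusted p = 8.55e-08), RASSF5 rose by 0.26 with MI-503 (edgeR adjusted p = 0.000122), and RAP1A fell by 0.22 between the treated groups (edgeR adjusted p = 0.00173).

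Of 6 genes that hold integrins inactive, 2 rose and 2 fell with MI-503 (median 0.09), 4 rose and 1 fell with the combination against DMSO (median 0.33), and 3 rose and none fell between the treated groups (median 0.34). FLNA, which competes with talin for beta chain tails, was at 1372 ± 22.6, 2233 ± 119 and 3080 ± 225 CPM and rose by 0.70, 1.17 and 0.46 log2 units (edgeR adjusted p = 1.92e-09, 1.4e-12 and 1.11e-06). DOK1, another tail binder, rose by 0.41, 1.11 and 0.70 (edgeR adjusted p = 5.24e-06, 6.72e-12 and 1.1e-08). ITGB1BP1, which binds the ITGB1 tail, fell by 0.32 with MI-503 and 0.26 with the combination (edgeR adjusted p = 3.95e-05 and 0.000365). SIPA1, which switches RAP1 off, fell by 0.15 with MI-503 and rose by 0.29 between the treated groups (edgeR adjusted p = 0.018 and 0.000154), SHARPIN rose by 0.15 with the combination against DMSO with overlapping libraries (edgeR adjusted p = 0.0181), and RASA3 was at 0.731, 0.792 and 1.06 CPM with a difference of 0.40 between the treated groups that was not called (edgeR adjusted p = 0.195).

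Among 15 tested adhesion adaptors and kinases 8 rose and 2 fell with MI-503 (median 0.15), 6 rose and 2 fell with the combination against DMSO (median 0.08), and 5 rose and 5 fell between the treated groups (median 0.08). SRC, a kinase that signals from engaged integrins, was at 14.02 ± 0.929, 22.2 ± 1.48 and 30.9 ± 1.86 CPM and rose by 0.67, 1.15 and 0.48 log2 units (edgeR adjusted p = 2.67e-07, 9.79e-11 and 1.6e-05). VCL, which ties talin to actin, rose by 0.53 with MI-503 and 0.75 with the combination (edgeR adjusted p = 1.22e-08 and 7.68e-11), and PXN, an adaptor that binds the ITGA4 tail, rose by 0.66 with the combination against DMSO (edgeR adjusted p = 2.5e-10). PTK2B rose by 0.26 and LYN fell by 0.24 with MI-503 (edgeR adjusted p = 2.76e-05 and 0.000198), and PARVB fell by 0.40 between the treated groups (edgeR adjusted p = 3.87e-06).

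**Figure D4:**
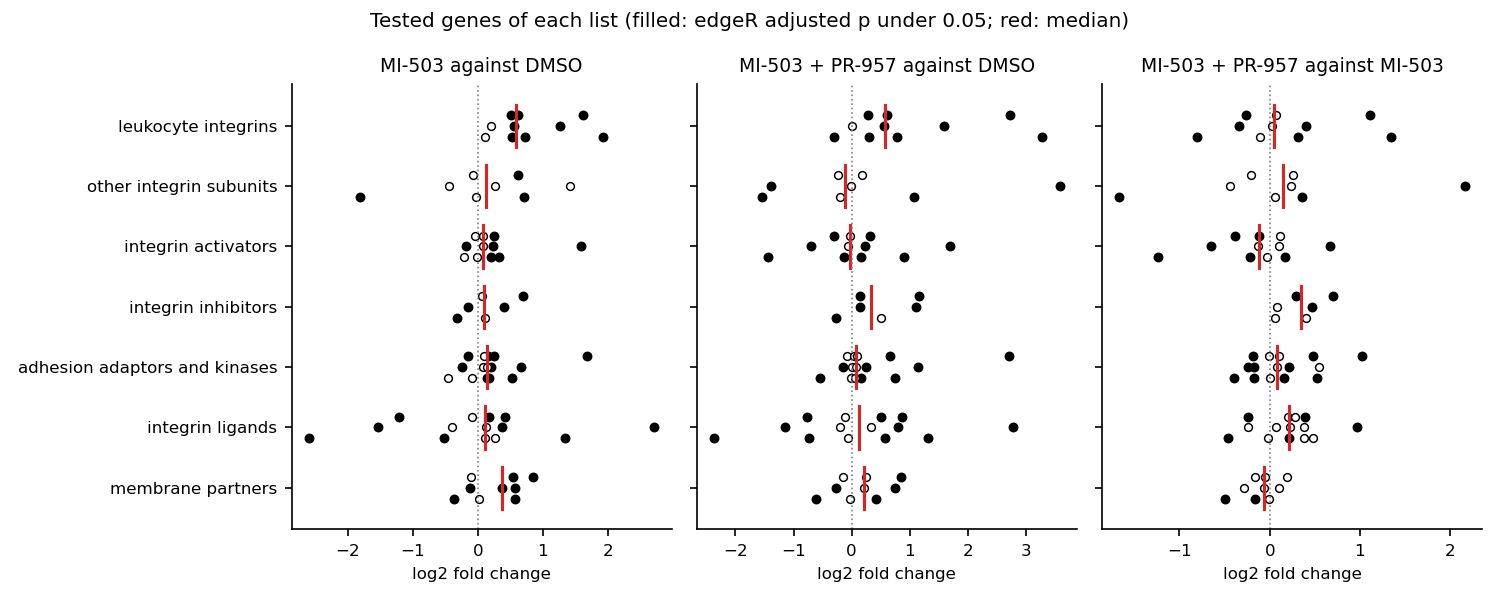
Log2 fold change (x axis, scaled per panel) of the tested genes of the members' list and 6 further lists in each contrast, 1 point per gene, filled where the edgeR adjusted p was under 0.05, with the list median in red. The median of the 10 leukocyte integrins is at 0.58 in the first 2 panels and 0.05 in the third.

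Ligands of these receptors were called in both directions. Of 14 tested, 5 rose and 4 fell with MI-503 (median 0.12), 6 rose and 4 fell with the combination against DMSO (median 0.13), and 3 rose and 2 fell between the treated groups (median 0.22). C3, whose cleaved form is bound by Mac-1 and complement receptor type 4, went from 3.44 ± 1.16 CPM with DMSO to 22.6 ± 1.51 and 24.0 ± 5.42, a log2 fold change of 2.71 ± 0.201 with MI-503 (edgeR adjusted p = 5.07e-07) and 2.78 ± 0.209 with the combination (edgeR adjusted p = 2.24e-07). ICAM3, a ligand of LFA-1, went from 29.0 ± 5.7 to 73.2 ± 7.35 and 72.5 ± 6.04 CPM (1.34 and 1.32 log2 units, edgeR adjusted p = 3.9e-06 and 3.35e-06). ICAM1 rose by 0.50 with the combination against DMSO (edgeR adjusted p = 1.24e-07) and F11R by 0.37 with MI-503 (edgeR adjusted p = 3.2e-06), while SPP1, at most 1.42 CPM in any library, fell by 2.59 with MI-503 (edgeR adjusted p = 0.000231). SPP1 passed the filter on low counts only through the DMSO libraries, where it is high, so its p-value is no independent support for the fall. ICAM4 and ICAM5 fell by 0.24 and 0.46 between the treated groups (edgeR adjusted p = 0.00689 and 0.0168).

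Of 9 membrane partners of integrins 5 rose and 2 fell with MI-503 (median 0.38), 3 rose and 2 fell with the combination against DMSO (median 0.22), and none rose and 2 fell between the treated groups (median -0.06). CD47 was at 76.2 ± 0.762, 114 ± 5.72 and 102 ± 5.81 CPM, a rise of 0.58 with MI-503 (edgeR adjusted p = 8.1e-09) and a fall of 0.16 between the treated groups (edgeR adjusted p = 0.0124). The tetraspanin CD81 fell by 0.62 with the combination against DMSO and by 0.50 against MI-503 (edgeR adjusted p = 9.2e-10 and 6.85e-08). Its relatives CD37 and CD82 rose by 0.57 and 0.85 with MI-503 (edgeR adjusted p = 7.06e-06 and 0.00253), and CD151 fell by 0.36 (edgeR adjusted p = 0.00014).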

How the data were processed

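Fragments of polyA RNA (TruSeq libraries, paired reads) were aligned by the authors with STAR (2.7.10a) to hg38 and assigned to RefSeq exons with featureCounts (2.0.1, paired, strand ignored). Trimmomatic (0.39) is also named in the submitters' processing notes; no source used here gives the rule by which alignments were filtered. What the authors deposited are raw fragment counts, 1 per gene, without multi-mapping or multi-overlapping fragments; the joined table and the single-library tables differed in 0 cells. Deposited comparison tables of the authors (base mean, DESeq2 log2 fold change, standard error, statistic, p and adjusted p) were not used.

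Genes were filtered with filterByExpr (minimum count 10), scaled with TMM (factors 0.956 to 1.06) and fitted over all 11 libraries with edgeR (4.0.16, quasi-likelihood, R 4.3.3) with 1 mean per group, and 3 two-sided contrasts were adjusted by Benjamini-Hochberg over the 14683 genes, with calls at an adjusted p under 0.05. The biological coefficient of variation was 6.14%, and 11740 of 38557 genes had no count. Levels are CPM on TMM-scaled totals, also divided by counted exon length. The counting error of a level follows its number of fragments, and SDs are over libraries and also hold the differences between them. The procedure was tested on simulated data, whose setting and outcome are not given here.

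Members, lists and tests were chosen with earlier results of these data known. The text names all 10 members, every other integrin subunit that was tested, from each further list at most 4 genes per contrast, those of lowest adjusted p, and the 3 genes of at least 5 CPM most like ITGAM, ITGAX and ITGB2. Alternatives were RLE and upper-quartile scaling, no filter and a minimum count of 50, DESeq2 (1.42.0), limma-voom (3.58.1), fits of 2 groups, a replicate block, leaving out each library, an adjusted p under 0.01, and, chosen after seeing the data, the block with 2 groups, unshared exon bases and the make-up without each library. Deviations from the group means of MI-503 and combination libraries of the same number correlated at 0.14, 0.15 and 0.21 over 10041 genes (numbers 1, 2 and 4). Libraries of different numbers were not set beside them, so these values cannot show whether the numbers mark pairs. Promoter windows came from RefSeq (GRCh38.p14), where 7 members had an entry and 5 a window that ends at the counted exons. Of the adhesion list, 1 gene is not reported here and is left out of its counts.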

Additional observations from a re-analysis of the deposited data

Results flagged for a closer look

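A library at a distance from the other 3 of its group was found in 7 of 112 pairs of quantity and group of 4 that were examined, and chance gives about 1 in 20. Among the members this was ITGAV in DMSO replicate 2, at 12.96 CPM with the other DMSO libraries at 15.7 to 15.99 CPM. The ratio of ITGB2 to the sum of its alpha chains was 1.44 in the same library, with 1.78 in the other 3. In that library ITGB3 was also at 1.88 CPM (others 0.776 to 0.902) and PARVB at 77.5 CPM (others 72.6 to 73.1). ITGA2B was at 0.522 CPM in DMSO replicate 4 (others 0.304 to 0.332), ITGAD at 0.142 CPM in DMSO replicate 3 (others 0.0338 to 0.0474), and SPP1 at 0 CPM in MI-503 replicate 1 (others 0.164 to 0.174). The combination has 3 libraries and was not examined in this way. Several of the 7 pairs share DMSO replicate 2 and others rest on few fragments, so the rate of 1 in 20 cannot show which of them chance would give.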

How the results depend on the processing

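Over 20 alternatives that kept the threshold of 0.05, the 30 member results kept their call or lack of one in 573 of 600 values. Of the rest, 26 gained a call and 1 lost it, and 0 calls reversed direction. Results that were not called could change sign. ITGB1 with the combination against DMSO ran from -0.04 to 0.08. Between the treated groups, ITGA5 ran from -0.03 to 0.05 and ITGA6 from -0.10 to 0.16. The gains were ITGB1 and ITGAV with MI-503 against DMSO, in 13 and 12 alternatives, and ITGB1 between the treated groups without combination replicate 4 (-0.20, edgeR adjusted p = 0.00587); the loss was ITGAL with the combination against DMSO (0.28, edgeR adjusted p = 0.0546, replicate block with 2 groups). At a threshold of 0.01, 8, 7 and 4 members were called higher and 0, 1 and 3 lower in the 3 contrasts, ITGAL with the combination against DMSO being lost. With the replicate block over all libraries, 10 members were called higher with MI-503 against DMSO, where calls over all genes went from 7529 to 7601, and no other count of members changed. Deviations of DMSO libraries correlated with those of the same number at -0.25, 0.28, 0.06 and 0.18 for MI-503. For the combination the values were -0.06, 0.11 and 0.08, and these too cannot show whether the numbers mark pairs. Without division by exon length, the share of ITGAL in the ITGB2 alpha chains was 92.2% with DMSO and 87.3% with MI-503, that of ITGAM 6.43%, 9.57% and 13.4% in the 3 groups, and that of ITGAX 3.14% with MI-503. Over unshared exon bases, ITGB2 was at 118 and 172 CPM per kilobase with DMSO and MI-503, ITGA4 at 16.5, 23.5 and 13.4 in the 3 groups, and ITGB7 at 2.25, 6.92 and 14.96. ITGAD, ITGA2B, ITGB5 and SPP1 rested on few fragments in single libraries.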
